A study of Mus musculus with 24 samples.

Results

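The protocadherin genes of the embryonic mouse gut were described across wildtype guts and guts lacking Ret, Sema3d or both. Protocadherins are the largest subgroup of the cadherin superfamily of cell adhesion proteins. The members were every protein-coding gene whose symbol begins with Pcdh. There were 69 such entries among the 26260 genes of the deposited tables, and 67 of them were listed in every table. The alpha cluster gave 14 entries, the beta cluster 21, the gamma cluster 22, and the remaining 12 were single genes outside the clusters (Pcdh1, Pcdh7, Pcdh8, Pcdh9, Pcdh10, Pcdh11x, Pcdh12, Pcdh15, Pcdh17, Pcdh18, Pcdh19 and Pcdh20). Pcdha1 was listed for Ret null guts and in the 24-gut table only, and Pcdha8 was not listed for Ret null guts.

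The data are poly-A RNA-seq of 24 guts taken at embryonic day 12.5. Ret-Sema3d double null, Ret null, Sema3d null and wildtype guts were represented by 6 guts each, 3 female and 3 male. The mutants were homozygous, carried on a mixture of C57BL/6, 129/Sv and C3H, and the labels name no allele or construct. Ret encodes the receptor tyrosine kinase on which crest cells depend to colonise the gut, and Sema3d encodes a secreted guidance protein. The deposited tables hold model fits and no value per gut, so the levels below are fitted levels in normalised counts, without a spread over guts. Sex is a separate term of the model, and a level is the mean of the fitted female and male values. Every change is a log2 coefficient from the authors' deposited table for that comparison, and the value after ± is an error derived from the deposited deviances. A gene was called when the adjusted p deposited by the authors was below 0.05. All 3 genotype comparisons use the same wildtype guts, so their values for a gene are not independent of each other.

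The mutated genes checked the labels. The authors' deposited tables gave Ret a change of -10.36 ± 0.29 in double null guts and -8.34 ± 0.24 in Ret null guts, both against wildtype guts. The change of Sema3d in the deposited tables was -1.04 ± 0.07 in double null guts and -1.06 ± 0.11 in Sema3d null guts, so part of its RNA was still detected in those mutants. Sema3d was also called lower in Ret null guts, where it is not the mutated gene, with -0.27 ± 0.06 (adjusted p = 8.82e-04) in the authors' deposited table. The tissue label was checked with 8 mesenchyme and smooth muscle markers, whose fitted wildtype levels ran between 604 and 16189, and with 9 epithelium markers, between 140 and 1310. All 16 neuron markers were, by the authors' deposited tables, called lower in double null guts (median log2 change -3.80) and in Ret null guts (median -3.69), and none was called in Sema3d null guts. Crest progenitor and glia markers were called lower in the deposited tables for 9 of 10 in double null guts and 7 of 10 in Ret null guts. In whole guts, fewer cells of a type and less RNA per cell cannot be told apart, and the part of this loss in any protocadherin value was not tested.

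Clustered protocadherins lie side by side on a chromosome, and in neurons each cell switches on a few of them by choice of promoter, with CTCF and cohesin folding the locus. In the alpha and gamma clusters each variable exon is spliced to constant exons shared by the whole cluster, whereas beta genes carry no shared constant exon. The proteins bind their own kind on neighbouring membranes and let sister branches of a neuron recognise and avoid each other. The single genes are separate loci with whole, unshared transcripts, and they are often divided into delta1 (Pcdh1, Pcdh7, Pcdh9 and Pcdh11x) and delta2 (Pcdh8, Pcdh10, Pcdh17, Pcdh18 and Pcdh19). Ret kinase is known from mouse neural cells to phosphorylate protocadherins of the alpha and gamma clusters.

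In the GENCODE M21 annotation of GRCm38, 68 of the 69 entries were matched by gene identifier, and all matched clustered genes, together with Pcdh1 and Pcdh12, lay on chromosome 18. Annotated exon length ran between 5206 and 7535 bases for alpha genes. A median of 46.6% of it (range 45.1 to 62.0%) was covered by no other protocadherin gene. Overlap with genes outside the family was not examined. For gamma genes this unshared part had a median of 55.4% (range 33.2 to 72.2%), for beta genes it was 90.3 to 100%, and for the 12 single genes it was 100%. Values of alpha and gamma genes therefore depend on how the authors' counting divided reads over the shared exons, and are uncertain to that extent. The symbols Pcdha11 and Pcdhga8 were each borne by a pair of identifiers, and the entry ENSMUSG00000023036.14, named Pcdhga8 in the tables, is Pcdhgc4 in GENCODE M21.

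Transcript levels differed widely between members. Per kilobase of the longest annotated transcript, the fitted wildtype level was highest for the delta2 gene Pcdh18 (597 normalised counts per kb) and the gamma gene Pcdhgc3 (583 normalised counts per kb), followed at a distance by Pcdh1 (178), Pcdh7 (145) and the gamma gene Pcdhgb6 (87.5 normalised counts per kb). Per kilobase of all annotated exons the wildtype levels of Pcdh18 and Pcdhgc3 were 575 and 497, and Pcdh1 (110) came after Pcdh7 (120). The median wildtype level per kilobase was 40.3 over the 12 single genes, 28.3 over 21 matched gamma genes, 7.36 over 21 beta genes and 0.73 over 14 alpha genes. Without values per gut, neighbours in this order cannot be separated by their spread.

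**Figure D1:**
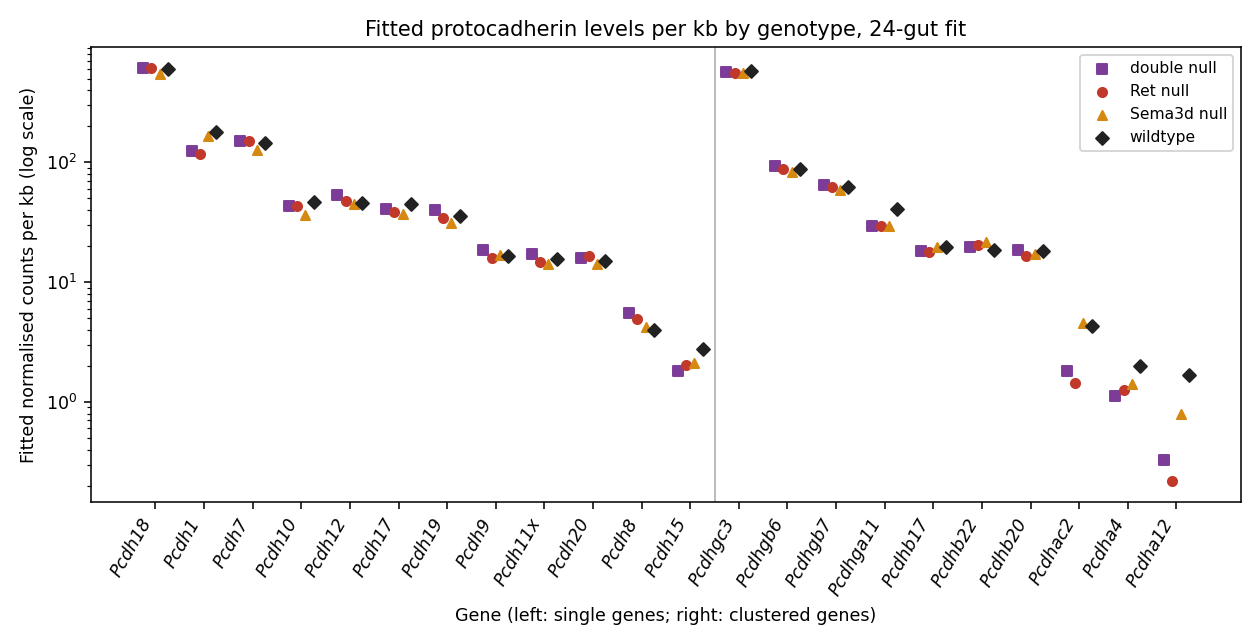
Fitted levels (normalised counts per kb of the longest annotated transcript, log axis) in double null, Ret null, Sema3d null and wildtype guts from the 24-gut table. The 12 single genes stand on the left and selected clustered genes on the right. The points are model values without error bars. In wildtype guts Pcdh18 and Pcdhgc3 sit highest, at 597 and 583 per kb, and the highest alpha member, Pcdhac2, is at 4.29.

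Within the summed wildtype level of the clustered genes, gamma genes made up 85.9%, beta genes 12.9% and alpha genes 1.22%. Pcdhgc3, a C-type gene at the end of the gamma cluster, alone held 47.2% of the gamma sum, and Pcdhac2, a C-type gene of the alpha cluster, held 30.8% of the alpha sum. Pcdh18, Pcdh7 and Pcdh1 together held 73.8% of the summed level of the single genes.

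The summed alpha level was 41.2 normalised counts in double null guts, 43.3 in Ret null guts and 63.3 in Sema3d null guts, against 81.9 in wildtype guts. These sums were 50.3, 52.9 and 77.3% of wildtype. Unbounded fits were kept in the sums. The Ret null alpha sum includes 5.58 of Pcdha1, an unbounded fit whose level was 2.81 when Ret null guts were fitted with wildtype guts alone. In the separate fits of each mutant with wildtype guts, the alpha sums were 51.0, 50.1 and 77.2% of wildtype. The order of the double null and Ret null alpha sums thus depends on the fit. The beta sum was 896, 812 and 833 in the same order of mutants, against 867 in wildtype guts, which are 103, 93.6 and 96.0% of wildtype. The gamma sum was 5660, 5570 and 5596, against 5788 in wildtype guts, or 97.8, 96.2 and 96.7%. The single genes summed to 7092, 6883 and 6488, against 7215 in wildtype guts, or 98.3, 95.4 and 89.9%. The sums carry no replicate error, and no test of them was made.

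**Figure D2:**
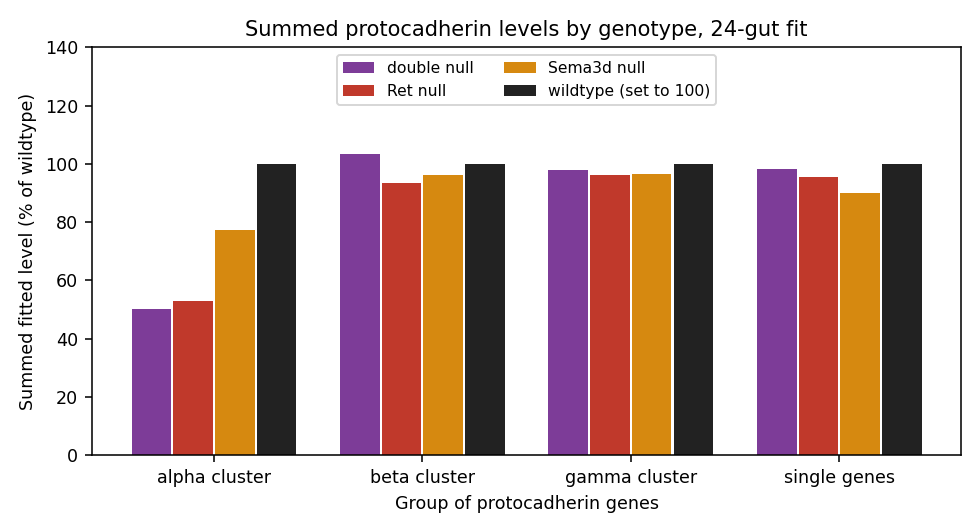
Summed fitted level of the alpha, beta, gamma and single protocadherins (% of the wildtype sum, axis from 0) in double null, Ret null, Sema3d null and wildtype guts from the 24-gut table. Bars are sums of model values and have no error. The alpha sum is 50.3% of wildtype in double null and 52.9% in Ret null guts. The Ret null alpha sum includes 5.58 normalised counts of Pcdha1, an unbounded fit. The gamma sums of the mutants lie between 96.2 and 97.8%.

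The comparison of Ret null with wildtype guts asked which genes follow the loss of Ret. Of 68 members tested, 4 were called in the authors' deposited table, all lower in Ret null guts. They were Pcdh1, Pcdhac2, Pcdha12 and Pcdhga11. The 4 are 5.88% of the members, against 2.66% called among all 24602 genes listed there, 2.27% lower and 0.386% higher. Among the 17452 protein-coding genes, the class the members belong to, 3.43% were called. An unadjusted p below 0.05 was deposited for 10 of the 68 members, 4 of them alpha entries, against 8.43% of all genes and 1798 of the 17452 protein-coding genes. By group, the called members were 2 of 13 alpha, 0 of 21 beta, 1 of 22 gamma and 1 of 12 single genes.

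The same 4 members were called lower in double null guts, of 68 tested, and none was called higher. Of the 24663 genes tested there, 2.1% were called, 1.87% lower and 0.231% higher, and of the 17511 protein-coding genes 2.75% were called. An unadjusted p below 0.05 was deposited for 13 of the 68 members, against 6.71% of all genes and 1443 of the 17511 protein-coding genes. Of these 13 members, 7 were alpha entries, all below 50 normalised counts and with shared exons. Among the 7 were Pcdha8 and Pcdhac1, whose fits are unbounded. Both tables rest on the same wildtype guts, so the recurrence of the 4 genes is not a second independent observation.

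Pcdh1, a delta1 protocadherin of the single genes, had the smallest adjusted p of the members in both tables. Its fitted level was 674 normalised counts in double null, 637 in Ret null and 897 in Sema3d null guts, against 966 in wildtype guts. In the authors' deposited tables it changed by -0.52 ± 0.07 in double null guts (adjusted p = 2.03e-11) and by -0.60 ± 0.07 in Ret null guts (adjusted p = 1.98e-14). In Sema3d null guts, by the authors' deposited table, the change was -0.10 ± 0.10 (adjusted p = 1.000). Pcdh1 lies at chr18:38185914-38212053 on the minus strand of GRCm38, outside the clusters.

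Pcdhac2 codes for a C-type alpha protein that is known in mouse for its role in the spacing of serotonergic axons. It had fitted levels of 10.8 in double null, 8.51 in Ret null and 26.8 in Sema3d null guts, against 25.2 in wildtype guts. Its deposited coefficient, in the authors' deposited tables, was -1.23 ± 0.30 in double null guts (adjusted p = 0.00368) and -1.57 ± 0.32 in Ret null guts (adjusted p = 9.24e-05). The Sema3d null value in the authors' deposited table was 0.09 ± 0.30 (adjusted p = 1.000). The double and Ret null levels were both well below wildtype, and the Sema3d null level lay near it.

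Pcdha12, an alternate isoform gene of the alpha cluster, was rare, with fitted levels of 1.76 in double null, 1.17 in Ret null and 4.19 in Sema3d null guts, against 9.03 in wildtype guts. It changed by -2.43 ± 0.66 in double null guts (adjusted p = 0.0124) and by -2.96 ± 0.74 in Ret null guts (adjusted p = 0.00338), per the authors' deposited tables. In Sema3d null guts the authors' deposited table gave -1.14 ± 0.57 (unadjusted p = 0.0464, adjusted p = 1.000). All 3 mutant levels were thus below wildtype, at a few normalised counts, where the error is large. Pcdhac2 lies at chr18:37143503-37187657 and Pcdha12 at chr18:37020149-37187657 on the plus strand, sharing the constant exons at their common end.

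Pcdhga11, a gene of the gamma A subfamily, had fitted levels of 140 in double null, 141 in Ret null and 139 in Sema3d null guts, against 194 in wildtype guts. The authors' deposited tables gave changes of -0.47 ± 0.11 in double null guts (adjusted p = 7.38e-04) and -0.46 ± 0.11 in Ret null guts (adjusted p = 0.00104). In Sema3d null guts the deposited change was as large, -0.47 ± 0.13, with an unadjusted p of 2.11e-04 and an adjusted p of 0.168 in the authors' deposited table. The 3 mutant levels lay close together, all below the wildtype level that the comparisons share. It lies at chr18:37755731-37841873 on the plus strand.

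**Figure D3:**
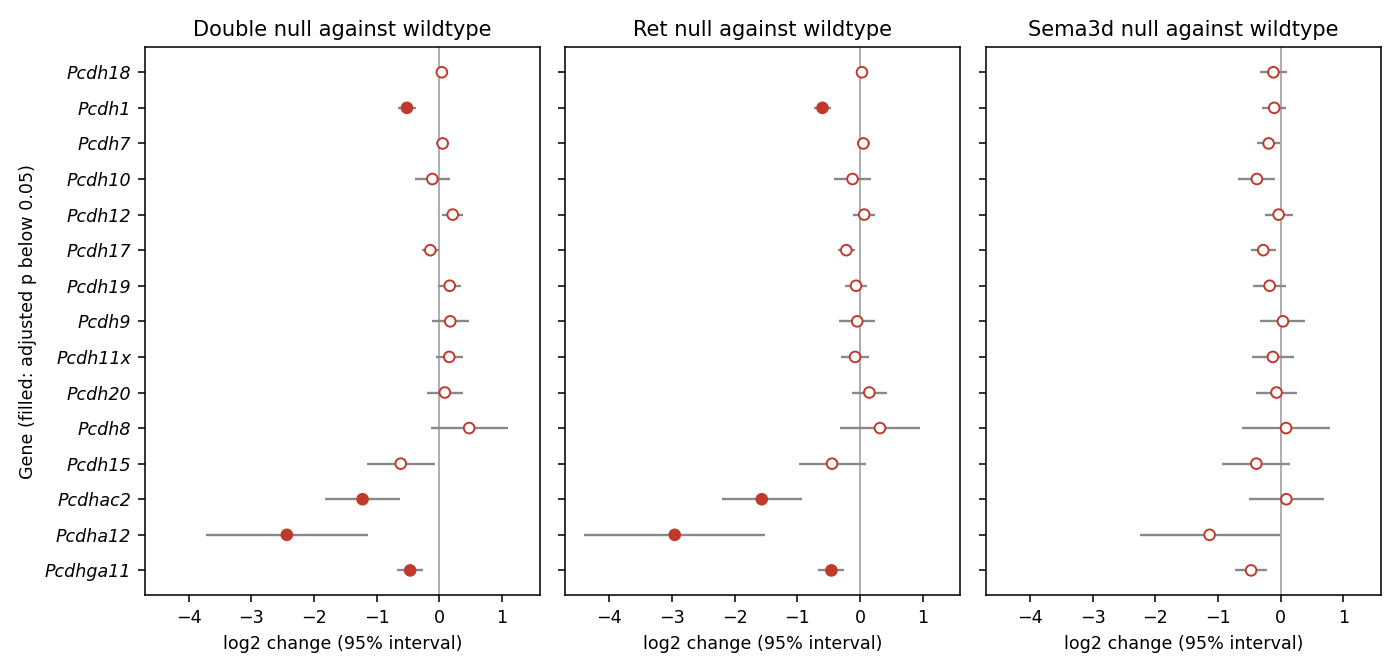
Log2 change (x axis) with 95% interval from the derived error for the 12 single genes and the called clustered genes in double null, Ret null and Sema3d null against wildtype guts. Filled points have an adjusted p below 0.05; Pcdh1, Pcdhac2, Pcdha12 and Pcdhga11 are filled and negative in double and Ret null guts, and none is filled in Sema3d null guts.

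Alpha genes had the lowest medians. Over the alpha members with a bounded fit the median log2 change was -0.83 in double null guts (11 members) and -0.96 in Ret null guts (11 members), against medians of 0.01 and 0.00 over all genes of those tables. In Sema3d null guts it was -0.56 (12 members), against 0.01 over all genes. Negative values were found for 9 of 11, 10 of 11 and 8 of 12 of these members. No alpha member reached 50 normalised counts in any genotype, and the shared exons tie their values to each other, so this count is a description. Pcdha4, the alpha gene next in abundance, was not called, the authors' deposited tables giving -0.83 ± 0.51 in double null guts and -0.67 ± 0.56 in Ret null guts. Pcdhac1, the other C-type alpha gene, had fitted levels of 1.92 or below in all genotypes.

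Beta genes, whose transcripts share little with each other, had no called member. Their median log2 change was 0.08 in double null, -0.13 in Ret null and -0.13 in Sema3d null guts over 21 members. Pcdhb22, the most abundant in wildtype guts, had fitted levels of 129 in double null, 135 in Ret null and 142 in Sema3d null guts, against 122 in wildtype guts. Pcdhb16 had 67.1, 47.3 and 54.0 in the same mutants, against 61.8 in wildtype guts. The deposited changes of Pcdhb16 were 0.12 ± 0.16 in double null and -0.38 ± 0.17 in Ret null guts, and neither was called in the authors' deposited tables (adjusted p = 1.000 and 0.456).

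Gamma genes other than Pcdhga11 were not called in any comparison, and the gamma medians were -0.03 in double null, -0.05 in Ret null and -0.10 in Sema3d null guts. Pcdhgc3, the most abundant gamma gene, had fitted levels of 2665 in double null, 2628 in Ret null and 2603 in Sema3d null guts, against 2731 in wildtype guts. Its deposited changes were -0.04 ± 0.05, -0.06 ± 0.05 and -0.07 ± 0.09 in the authors' deposited tables, with 95% intervals of -0.13 to 0.06, -0.16 to 0.05 and -0.24 to 0.10. Pcdhgc5, another C-type gene, had 78.9, 64.4 and 73.6, against 64.3 in wildtype guts. Pcdhga4 had 123 in double null guts, against 103 in wildtype guts, and was not called.

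The entry ENSMUSG00000023036.14 had the largest fitted difference of any gamma entry in Sema3d null guts, 243 normalised counts, against 85.0 in wildtype guts, and 78.7 in double null and 77.4 in Ret null guts. Its change in the authors' deposited table was 1.48 ± 1.11 (unadjusted p = 0.182), while the median derived error over the 21 gamma entries at 50 or more was 0.16. Whether 1 gut carries this value cannot be seen from the fits. The other entry named Pcdhga8 had 69.4 in Sema3d null guts, against 86.0 in wildtype guts.

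**Figure D4:**
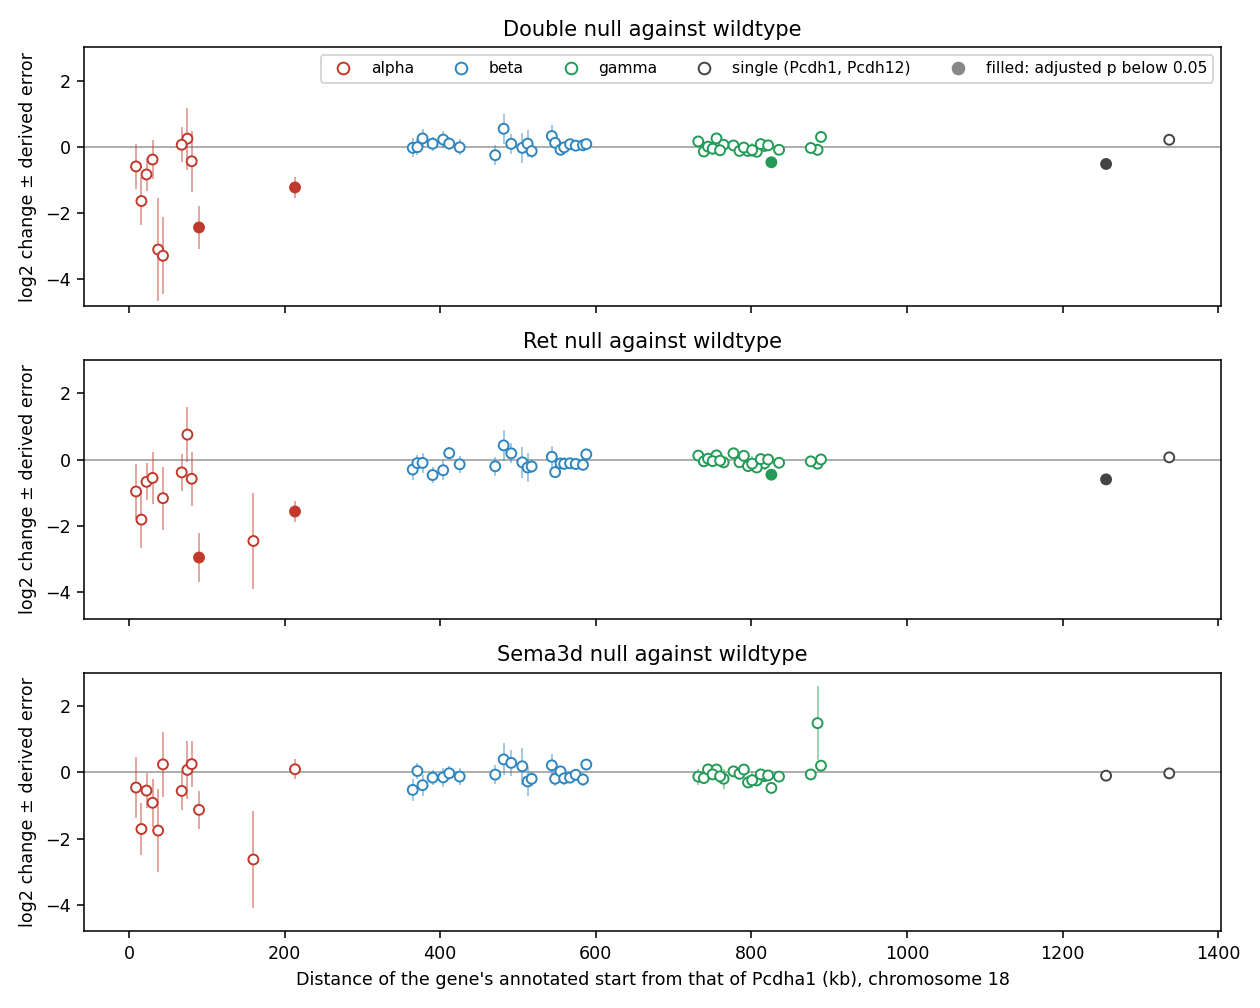
Log2 change of each protocadherin of chromosome 18 with its derived error, in double null, Ret null and Sema3d null against wildtype guts (1 panel each), by distance (kb) of its start from that of Pcdha1, unbounded fits left out. Filled points have an adjusted p below 0.05; the called alpha genes, Pcdhga11 and Pcdh1 lie among genes that were not called.

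The calls were set among other genes of the region. Between Pcdha1 and Pcdh12, 0 of 9 other protein-coding genes were called in double null guts and 0 of 8 in each of Ret null and Sema3d null guts, with smallest adjusted p values of 0.718, 0.206 and 1.000 in the authors' deposited tables. Over all genes 2.1, 2.66 and 0.0404% were called in the same order. With so few genes an absence of calls lies near those shares and does not set the protocadherins apart. Some were also rare, such as Slc25a2, at a fitted wildtype level of 2.72 in the double null comparison.

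The single genes other than Pcdh1 gave no call. Among delta1 genes, Pcdh7 had fitted levels of 1319 in double null, 1320 in Ret null and 1112 in Sema3d null guts, against 1273 in wildtype guts. Pcdh9, a widely expressed neural protocadherin, had 121, 104 and 109, against 107, and the X-linked Pcdh11x had 156, 133 and 129, against 141 in wildtype guts. The Sema3d null levels of Pcdh7 and Pcdh11x were the lowest of the 4 genotypes.

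Among delta2 genes, Pcdh18 had fitted levels of 3168 in double null, 3148 in Ret null and 2838 in Sema3d null guts, against 3085 in wildtype guts. Pcdh17 had 465, 441 and 424, against 514 in wildtype guts. In the authors' deposited tables Pcdh17 changed by -0.14 ± 0.07 in double null (adjusted p = 0.673), -0.22 ± 0.07 in Ret null (adjusted p = 0.0587) and -0.28 ± 0.10 in Sema3d null guts (adjusted p = 0.802). Adjusted over protein-coding genes alone, the deposited p of Pcdh17 in Ret null guts gave 0.0454, which passes the threshold.

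Pcdh10, known for its part in axon outgrowth in the mouse forebrain, had fitted levels of 359 in double null, 356 in Ret null and 297 in Sema3d null guts, against 387 in wildtype guts. Its Sema3d null change in the authors' deposited table was -0.38 ± 0.15 (unadjusted p = 0.0111, adjusted p = 0.884). Pcdh19, the X-linked gene mutated in a human epilepsy, had 410, 351 and 323, against 366 in wildtype guts. Pcdh8 was low, with 24.9 in double null and 22.3 in Ret null guts, against 17.9 in wildtype guts.

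Pcdh12, known as vascular endothelial cadherin-2, had fitted levels of 295 in double null, 266 in Ret null and 248 in Sema3d null guts, against 254 in wildtype guts. The authors' deposited table gave 0.21 ± 0.09 in double null guts (unadjusted p = 0.0138, adjusted p = 0.369). Beside it, 6 of 10 endothelium markers were called higher in double null guts in the deposited table (median of the 10, 0.27), and none in Ret null guts (median 0.03). Over all genes, 0.231% and 0.386% were called higher in these comparisons. In Sema3d null guts no endothelium marker was called, and their median was 0.17. The deposited changes of Pcdh12 were 0.07 ± 0.09 in Ret null and -0.03 ± 0.11 in Sema3d null guts, by the authors' deposited tables. The part of the endothelium in the Pcdh12 value was not tested. Pcdh20 had 83.0, 86.6 and 74.5, against 78.4 in wildtype guts, and Pcdh15, a component of the tip links of hair cells, had 16.4, 18.5 and 19.2, against 25.1.

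In Sema3d null guts no member was called, 0 of 68, and 7 had an unadjusted p below 0.05 in the authors' deposited table. Over all the 24747 genes tested there, 0.0404% were called and 4.53% had an unadjusted p below 0.05. Of the members with a fitted level of at least 50, 29 of 38 had a negative coefficient, including 9 of 10 single genes, whereas 50.9% of all genes at such levels had a positive one. That share differed by transcript length. Among protein-coding genes at such levels, 43.1% were positive in the third quartile of transcript length and 22.1% in the longest quartile. Of the members in these quartiles, 6 of 23 and 3 of 14 were positive. Positive coefficients were found for 21 of these 38 members in double null guts and 13 in Ret null guts, against 53% and 53.9% of all genes. In double null guts 52.5% and 59.9% of protein-coding genes were positive in the third and longest quartiles, with 9 of 23 and 11 of 14 members. In Ret null guts these shares were 52.0% and 39.2%, with 7 of 23 and 6 of 14 members. The width of the intervals also limits the reading of these signs. Their median half-width was 0.31 log2 units over these 38 members in Sema3d null guts, 0.24 in double null and 0.27 in Ret null guts. The whole 95% interval lay within 0.5 log2 units of no change for 35 of 38 members in double null, 29 in Ret null and 25 in Sema3d null guts. The 30 members below 50 normalised counts were mostly measured less precisely.

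The 24-gut table tested whether the double null level departs from the sum of the Ret and Sema3d changes. No member was called, 0 of 69, and 6 had an unadjusted p below 0.05 in the authors' deposited table, beside 0.164% and 6.79% of 26258 genes. The smallest p of the members belonged to the protein-coding Pcdhgb8 entry (unadjusted p = 0.00194, adjusted p = 0.245 in the authors' deposited table), whose positive coefficient is unbounded, with a Sema3d null level fitted near 0. Pcdhb16 had the largest interaction coefficient of the beta members at 50 or more, 0.70 ± 0.24 (unadjusted p = 0.00289, adjusted p = 0.299 in the authors' deposited table). Pcdhga11 had 0.47 ± 0.16 (unadjusted p = 0.00444, adjusted p = 0.355) in the authors' deposited table, and its double null level lay between those of the mutants alone. By the authors' deposited table Pcdh17 had 0.36 ± 0.13 (adjusted p = 0.358) and Pcdh19 had 0.41 ± 0.16 (adjusted p = 0.501). For Pcdh1 the deposited interaction was 0.19 ± 0.14 and for Pcdhac2 0.25 ± 0.49, both from the authors' deposited table.

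The sign of the interaction was mostly positive. All 12 single genes had a positive coefficient, and so had 33 of 38 members with a level of at least 50, against 49.8% of all genes at that level. Gene length moved with this sign. Over protein-coding genes with a level of at least 50 and a matched longest transcript, the median interaction was -0.12 in the shortest quartile (20.6% positive), -0.04 in the next (40.2%), 0.03 in the third (56.6%) and 0.13 in the longest quartile (82.1%). Members fell into these quartiles as 0, 1, 23 and 14, of which 0, 1, 19 and 13 were positive. The Sema3d null coefficients of such genes showed the opposite order, with medians of 0.09, 0.03, -0.02 and -0.08 from the shortest to the longest quartile. The same Sema3d null guts enter the interaction with the opposite sign, and both values use the same wildtype guts. These opposite orders, and the opposite signs of the members, are therefore not independent observations. The part of transcript length in the members' values was not tested.

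**Figure D5:**
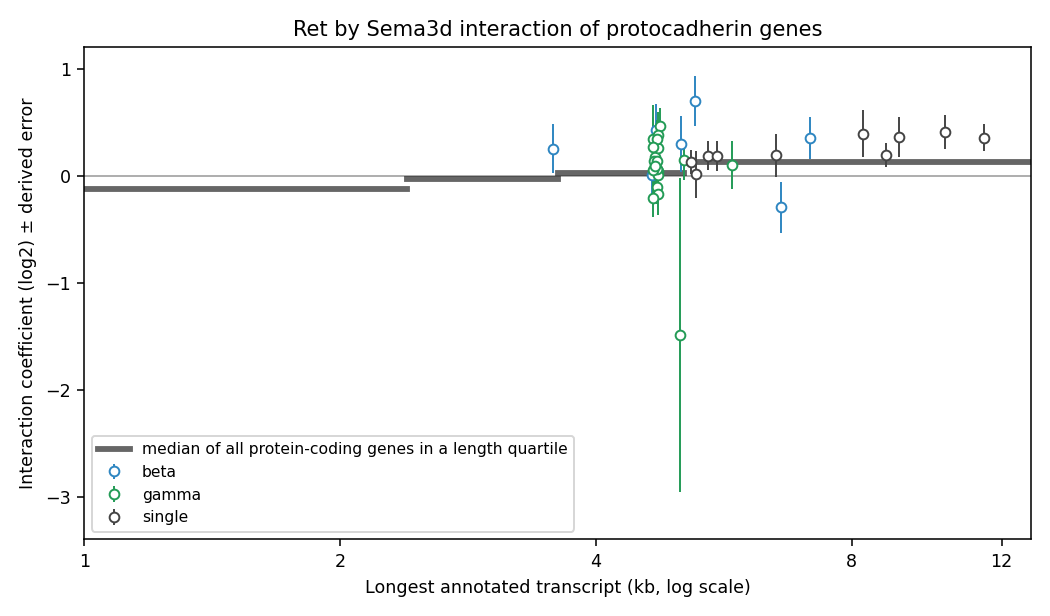
Interaction coefficient (log2, with derived error) of the 38 protocadherins with a level of at least 50 against the length of the longest annotated transcript (kb, log axis), and the median of protein-coding genes in each length quartile as a line, drawn over the plotted range only. The quartile medians are -0.12, -0.04, 0.03 and 0.13 from short to long, and 33 of the 38 members lie above 0.

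Genes that act on clustered protocadherins were examined by list. None of 16 regulators of the locus was called in any table, among them Ctcf, the cohesin subunit gene Rad21 and the silencer Smchd1. Ctcf had deposited changes of -0.01 ± 0.05 in double null, 0.05 ± 0.05 in Ret null and -0.02 ± 0.09 in Sema3d null guts in the authors' deposited tables. Of 20 signalling and processing partners only Fyn, a Src family kinase, was called: it changed by -0.25 ± 0.06 in double null guts (adjusted p = 0.00235) and by -0.36 ± 0.06 in Ret null guts (adjusted p = 2.43e-07), per the authors' deposited tables. Over all genes, 2.1% were called in double null, 2.66% in Ret null and 0.0404% in Sema3d null guts, and 0.164% for the interaction. So few calls in lists of 16 and 20 genes lie near those shares and are not a result about the lists.

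Among 40 other cadherin superfamily genes, 5 were called lower and 2 higher in each of the double null and Ret null tables, and none in the Sema3d null table. Over all genes, 1.87% were called lower and 0.231% higher in double null guts, and 2.27% and 0.386% in Ret null guts. The 5 lower genes were the same in both. Cdh19, is also among the crest progenitor and glia markers, and Cdh5, called higher in double null guts, is among the endothelium markers. Celsr3, a seven-pass cadherin of developing axons, changed by -3.35 ± 0.18 in double null and -3.46 ± 0.19 in Ret null guts, per the authors' deposited tables. Cdh6, a classical type II cadherin, changed by -1.27 ± 0.12 and -1.59 ± 0.11, and Cdh2, neural cadherin, by -0.34 ± 0.08 and -0.47 ± 0.05, in double null and Ret null guts of the authors' deposited tables. Cdh3, placental cadherin, rose by 0.17 ± 0.05 in double null and 0.22 ± 0.05 in Ret null guts, per the authors' deposited tables.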

How the data were processed

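RNA of 24 guts was made into stranded mRNA libraries and sequenced as 100 bp read pairs per the labels' protocols. Per the submitters' processing notes, the tools were DESeq 1.24.0, RSEM 1.2.31, STAR, FastQC 0.11.5 and Trimmomatic 0.36, and the build GRCm38 (mm10), with no roles given. The authors deposited 4 tables of model fits per gene. Their log2 coefficients (intercept, sex and genotype) were deposited by the authors, as named in the file headers. In the 24-gut table a few unbounded fits exceed what a log2 value can take, so its deposited coefficients were read as a score on the log2 scale. The deviances deposited by the authors are a score of fit. The p-values, raw and adjusted, are those the authors deposited. For Ret null guts the symbol and gene type headers are exchanged, so these columns were read by content. Depth per library is unknown from these tables, so no counting interval is given.

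A chi-square distribution with 1 degree of freedom, applied to the deviance drop, returned the deposited p-values within 4.91e-09. The log base is not named in the headers: base 2 gave fitted wildtype totals of 11.6 to 12.0 (in megacounts, after normalisation), the natural base 432 to 458 in that unit, and base 2 was used. The error after ± is the size of the coefficient over the square root of the deviance drop, and 95% intervals are 1.96 times it either way. A fit was treated as unbounded, and left out of medians, when any genotype, interaction or sex coefficient passed 15 log2 units. Fits that did not converge, such as Pcdhgb8 in the Ret null comparison, or that had an extreme intercept were left out in the same way. The derivation was tested on simulated counts for genes at a fitted wildtype level of at least 50, with the same known scatter for every gene. There the derived error was compared with the model error among called genes only. It was not tested at the lower levels of the alpha genes, Pcdhac2 and Pcdha12 included. Computations used Python 3.11.15, pandas 2.3.3, scipy 1.17.1 and matplotlib 3.10.9. Replicates are separate guts per the labels, and p-values cover the spread between them.

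Named members were those called in any table, single genes at a level of 50 or more, the C-type genes, the 3 most abundant of each cluster, and the 2 largest changes each way per cluster and comparison at 50 or more. From each of 8 gene lists up to 4 genes of smallest p per comparison could be named. Pcdh8 and Pcdh15 (below 50), Ctcf, Rad21, Smchd1 and Cdh3, and Pcdhgb8 and Pcdhgb5 in the closing section, were named outside this rule, after their values were seen. Members and lists were chosen with earlier results of these data known. Alternatives changed the threshold, the genes adjusted over, the fits kept and the table the change is read from. No sequences are shown, since all called members lie on chromosome 18.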

Additional observations from a re-analysis of the deposited data

How the results depend on the processing

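Of 40 counts of called members under alternative settings, 39 stayed within 1.5 times the reported count. Most of the 40 set 0 against 0 and say little. No member was called higher in any comparison, and none lower in Sema3d null guts or for the interaction. The count outside the limit was that of members lower in double null guts. It was 2 in place of 4 when p was adjusted over genes whose level reached 50, since Pcdhac2 and Pcdha12 lie below that level. In Ret null guts the same setting gave 3, without Pcdhac2 and Pcdha12 and with Pcdh17, whose p from the authors' deposited table was then 0.0393 after adjustment. A threshold of 0.1, or adjustment over protein-coding genes, added Pcdh17 in Ret null guts, and a threshold of 0.01 removed Pcdha12 in double null guts. All 40 alternative group medians differed from the reported one by less than the median derived error of the group's members, which is not a spread of the median. For alpha genes that error was 0.69 in double null, 0.82 in Ret null and 0.75 in Sema3d null guts, so the rule was loose there. Direction was not part of the rule. For single genes in double null guts the median was 0.07, and the log2 ratio of summed levels was -0.02. Adjustment over genes whose level reached 50 leaves the coefficients as they are, so only the side of the threshold could change. It stayed the same for 89 values of named genes and changed for 1, Pcdh17 in Ret null guts. The 24-gut table gives no p for these changes. Its values differed from those of the 12-gut tables by at most 0.08 log2 units over the 76 compared, which leave out genes unbounded there, such as Pcdhac1 (-2.67 in place of -2.46 in Ret null guts). The alpha medians in the 24-gut table, over 10 members, were -0.70 in double null, -0.70 in Ret null and -0.39 in Sema3d null guts. No paired analysis was possible because the tables hold no value per gut. For the same reason no gut could be left out and no other count test was run. The fits give no depth per library, and reads shared between alpha or between gamma genes limit those values.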

Other observations

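Sex is a term of the authors' model and belongs to no genotype comparison. In the authors' deposited 24-gut table the male minus female coefficient of the 38 members with a level of at least 50 ran between -0.32 and 0.37 log2 units, with a median of -0.02. The central 95% of all 12418 genes at that level lay between -0.18 and 0.19. Below this range were 3 members and above it 5. The lowest was Pcdhgb5 at -0.32 and the highest ENSMUSG00000023036.14 at 0.37, with Pcdh20 at 0.24, in that deposited table. The X-linked genes stayed inside the range, Pcdh19 at -0.08 and Pcdh11x at 0.05. No p-value is given for sex in these tables, so none of these differences was tested, and Pcdhgb5 was named after its value was seen.

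A second entry named Pcdhgb8, classed as a polymorphic pseudogene and so not a member, had a fitted wildtype level of 38.3 normalised counts in the 24-gut table. In the authors' deposited table its interaction coefficient was -1.90 ± 0.82 (unadjusted p = 0.0209, adjusted p = 0.610). The protein-coding Pcdhgb8 entry had fitted levels of 12.6 in double null and 3.38 in Ret null guts, and was listed near 0 in Sema3d null guts, against 6.77 in wildtype guts. Its interaction coefficient was positive and unbounded in the authors' deposited table (unadjusted p = 0.00194, adjusted p = 0.245), opposite in sign to that of the pseudogene entry, and its fit in the Ret null table did not converge.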
